A study of Mus musculus with 6 samples.

Results

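A set of 9 miRNAs that mark epithelial and biliary cells was followed in extracellular vesicles of primary mouse hepatocytes. They were taken by row name, not by their values: miR-182-5p, miR-183-5p and miR-96-5p of the miR-183 cluster, miR-200a-3p, miR-200b-3p, miR-200c-3p, miR-141-3p and miR-429-3p of the miR-200 family, and miR-375-3p. All 9 names were found among the 1976 mature miRNAs of the table. The vesicles, called exosomes in the labels, came from wild-type C57BL/6J hepatocytes given palmitic acid, a saturated fatty acid that loads cells with lipid, at 0 µM (3 control libraries) or 600 µM (3 palmitic acid libraries). No other treatment is named, and the cells of both groups share genotype and cell type. The title of the series concerns fatty liver, vesicles and the vessel wall, and the comparison asks how the miRNA cargo differs after fatty acid loading. Whether the libraries of a group are separate preparations is not labelled, and p-values therefore measure the spread between these libraries alone, which may be technical.

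A miRNA guides a silencing complex to messenger RNAs mainly through its seed, bases 2 to 8 from its 5′ end. The miR-200 family keeps epithelial cells epithelial by repressing the transcription factors Zeb1 and Zeb2, which drive the epithelial to mesenchymal transition. The miR-183 cluster is best known from sensory epithelia such as the inner ear and retina. miR-375 is an islet and epithelial miRNA that restrains insulin secretion. In liver the miR-200 family and miR-375 are known as markers of bile duct cells more than of hepatocytes.

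The mature sequences show which members can share targets and which can be mistaken for each other when reads are assigned. RefSeq entries on GRCm38.p6 matched 8 of the 9 members, given 5′ to 3′ with the seed in capitals.
miR-182-5p: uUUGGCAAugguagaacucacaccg
miR-96-5p: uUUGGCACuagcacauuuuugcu
miR-183-5p: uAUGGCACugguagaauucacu
miR-200a-3p: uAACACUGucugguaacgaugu
miR-141-3p: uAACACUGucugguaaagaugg
miR-200b-3p: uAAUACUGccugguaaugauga
miR-200c-3p: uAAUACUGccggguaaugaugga
miR-429-3p: uAAUACUGucugguaaugccgu

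The miR-200 family falls into 2 seed groups, miR-200a-3p with miR-141-3p and miR-200b-3p with miR-200c-3p and miR-429-3p, whose seeds differ at 1 of 7 bases. Counted from the 5′ end, miR-200a-3p and miR-141-3p differ at 2 of 22 bases (C17A and U22G). miR-200b-3p and miR-200c-3p also differ at 2 of the first 22 (U11G and A22G), so reads of these pairs may have been split and their single values are uncertain. The seeds of miR-96-5p and miR-182-5p differ at 1 base, as do those of miR-96-5p and miR-183-5p. Over the first 22 bases miR-182-5p and miR-183-5p differ at 4, while miR-96-5p differs from miR-182-5p at 11 of the first 23. Among the other mature mouse miRNAs of the RefSeq table, only miR-1271-5p carries the seed of miR-96-5p, and none outside the family carries a miR-200 seed.

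The hairpins lie at 4 loci, all on the minus strand of GRCm38.p6. Mir182 (chromosome 6, 30165918 to 30165992), Mir96 (30169446 to 30169551) and Mir183 (30169668 to 30169737) span 3820 bases and overlap no other annotated gene in GENCODE M21. Mir200b (chromosome 4, 156055681 to 156055750), Mir200a (156054896 to 156054985) and Mir429 (156053905 to 156053987) span 1846 bases in an intron of the protein-coding gene Ttll10. They also lie within the non-coding gene Gm13648, where Mir429 is exonic and the other two are intronic. Mir200c (chromosome 6, 124718322 to 124718390) and Mir141 (124717914 to 124717985) span 477 bases in an intron of the non-coding gene Gm15884, and Mir141 also overlaps an exon of Gm29008. Mir375 (chromosome 1, 74900658 to 74900721) overlaps no other annotated gene.

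Read numbers were recovered from the deposited log2 values, which had been adjusted to a common scale by a factor for each library. The fitted factors did not follow the read totals. They were 0.369 for control replicate 2 (657609 reads) and 1.685 for palmitic acid replicate 3 (613478 reads). Changes on the deposited scale are therefore not corrected for read total alone. Recovered totals ran from 95245 to 657609 reads in controls and from 613478 to 799142 with palmitic acid. miR-122-5p and miR-122b-3p, which overlap at the main hepatocyte miRNA locus, took 69.2% to 87.7% of control reads and 11.7% to 15.3% of palmitic acid reads. That left 29354 to 80779 other reads in controls and 534431 to 676905 with palmitic acid, so levels below are given as RPM, the read number scaled to a common total of the reads other than these 2 miRNAs. With this difference in depth, 3 reads, the limit that a count of 0 allows, stood for 37.1 to 102 RPM in controls and 4.43 to 5.61 RPM after palmitic acid. Intervals and limits cover counting error only, since copies made by PCR are not independent molecules. The reads left were themselves uneven. Another abundant miRNA, miR-148a-3p, took most of them in control replicate 2 and a much smaller share in the other controls. Its share was also larger in palmitic acid replicate 3 than in the rest of that group. This lowers the RPM of every other miRNA in those libraries, and RPM with miR-148a-3p also left out was not tested.

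The members were dominated by a single locus. The miR-183 cluster gave 585 of 651 member reads in controls and 22466 of 22525 with palmitic acid. The miR-200 family gave 66 and 58 reads, and miR-375-3p gave 0 and 1. miR-182-5p alone made up 80.5% of member reads in controls and 93.8% with palmitic acid. Reads of all 9 members together came to 4113 ± 1230 RPM (SD, n = 3) in controls and 11584 ± 5369 RPM (SD, n = 3) after palmitic acid. In bulk vesicle RNA, fewer vesicles from a cell type and less of a miRNA per vesicle cannot be told apart.

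**Figure D1:**
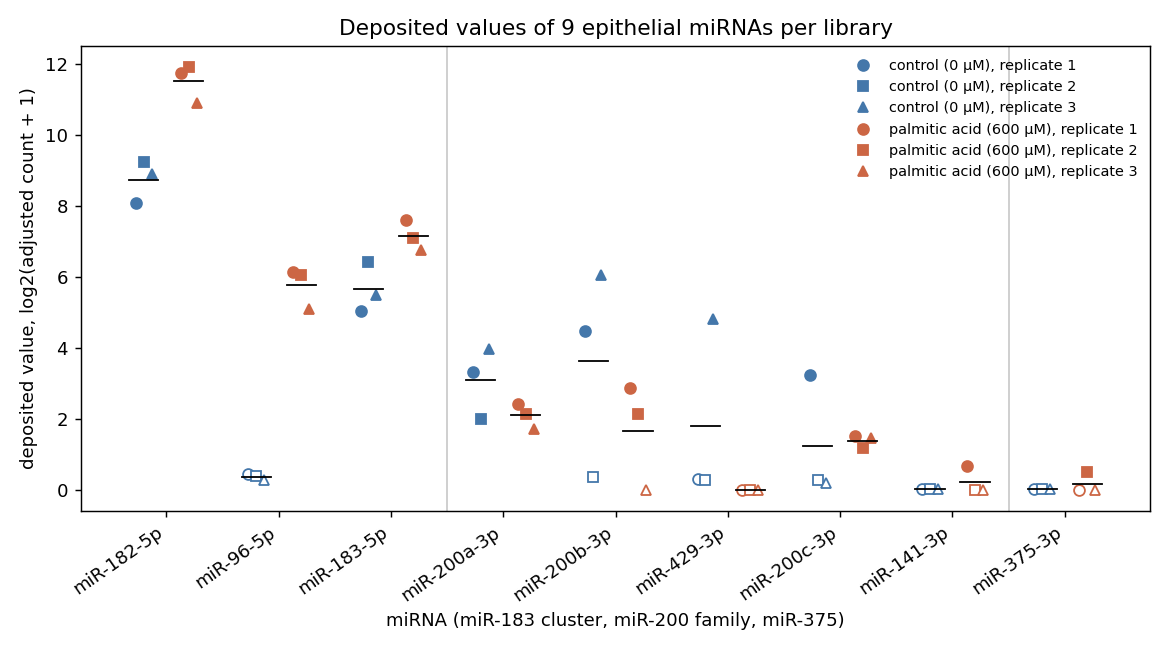
Deposited log2 values of the 9 members (x axis) in each library, controls in blue and palmitic acid in orange, with the group mean as a black bar; open symbols mark libraries without a recovered read. miR-182-5p, miR-96-5p and miR-183-5p stand higher in every palmitic acid library, whereas miR-200a-3p and miR-200b-3p overlap between the groups.

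The most abundant member in all 6 libraries was mmu-miR-182-5p, a repressor of Foxo transcription factors in many cell types. It had 86, 221 and 217 reads in control replicates 1, 2 and 3, against 6952, 10950 and 3216 after palmitic acid. In RPM these were 2930, 2736 and 4124 against 10270, 16283 and 6018. The groups did not overlap, and palmitic acid replicate 3 was the lowest of its group. On the deposited log2 scale it stood at 8.07, 9.23 and 8.88 without and at 11.73, 11.90 and 10.90 with the fatty acid. It rose by 2.79 on the log2(adjusted count + 1) scale (SE 0.45, 95% interval 1.75 to 3.82, limma adjusted p = 0.00115), higher in 3 of 3 palmitic acid libraries. In RPM without miR-122 the rise was 1.64 (SE 0.42, limma adjusted p = 0.015), in a fit where 31.5% of tested miRNAs rose and 22.7% fell. The median log2 change of the tested miRNAs in that fit was 1.18, so the shift of the table was not removed by this scale. Over all 181 tested miRNAs the median log2 change on the deposited scale was 1.94. Relative to that median, miR-182-5p stood at 0.85 and did not pass (limma adjusted p = 0.144), while 26.5% of tested miRNAs passed upwards and 32.6% downwards.

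Second in total reads was mmu-miR-183-5p, which comes from the 5′ end of the cluster. It had 10, 31 and 20 control reads and 395, 390 and 180 after palmitic acid. The deposited log2 values, 5.02, 6.42 and 5.47 against 7.60, 7.10 and 6.75, left a gap between the groups. The log2 change of 1.51 did not pass (SE 0.65, 95% interval 0.00 to 3.02, limma adjusted p = 0.0798). Without control replicate 2 it was 1.90 and passed (limma adjusted p = 0.0264), and relative to the median change of all tested miRNAs it turned to -0.43 (adjusted p = 0.607). In RPM the groups overlapped, at 341, 384 and 380 against 583, 580 and 337. On that scale palmitic acid replicate 3 lay below every control, and the log2 change was 0.40 (SE 0.59, limma adjusted p = 0.592). The median over all tested miRNAs was 1.18 in the same fit. The RPM of palmitic acid replicate 3 is lowered by its larger miR-148a-3p share. That share was larger still in control replicate 2, the highest control here, so its RPM is lowered more. Whether the overlap depends on miR-148a-3p was not tested.

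The third member of the cluster, mmu-miR-96-5p, whose seed mutations are a known cause of inherited hearing loss, was recovered after palmitic acid and not in controls. It had no read in any control library, and 141, 186 and 56 after palmitic acid, or 208, 277 and 105 RPM. The control values of 0.44, 0.37 and 0.26 in the deposited table stand for no reads and follow from the adjustment, so their spread is not a measured one. Set against 3 reads over the control group, miR-96-5p was at least 21.5-fold higher in adjusted counts and at least 10.7-fold higher in RPM. The fitted log2 change was 5.40 (SE 0.44, limma adjusted p = 2.7e-05), which depends on the value given to 0 reads. It passed the filter only through the palmitic acid libraries, so its direction was fixed by the filter. Of the 181 tested miRNAs, 17 (9.39%) had no control read.

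**Figure D2:**
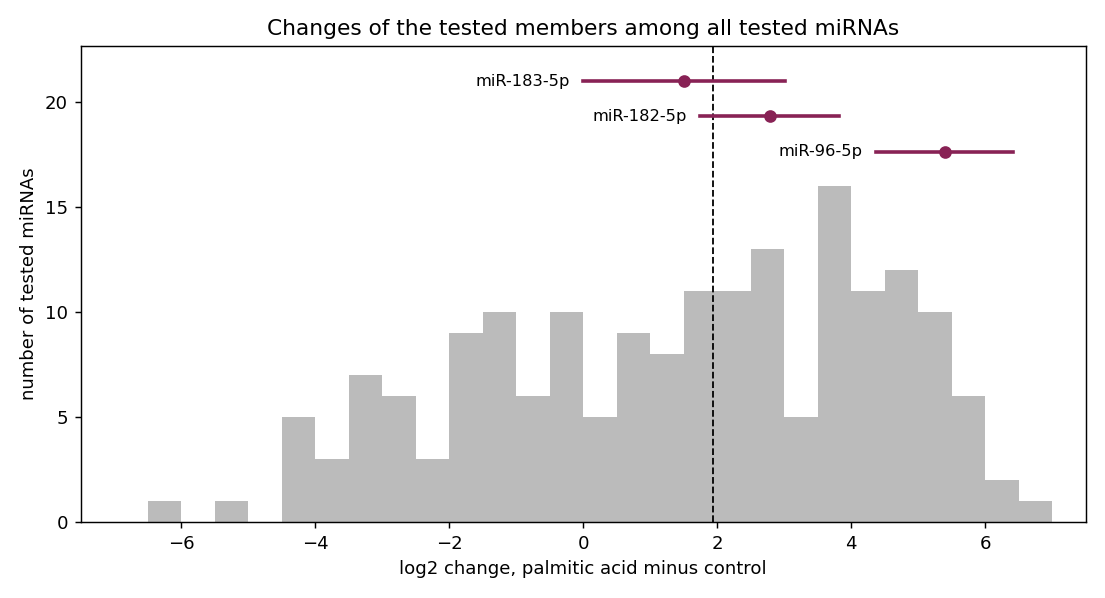
Log2 changes of the 181 tested miRNAs as a histogram (x axis, palmitic acid minus control; y axis, number of miRNAs), with the 3 tested members drawn above as points and 95% intervals and the median of 1.94 as a dashed line. The interval of miR-96-5p lies above the median, and those of miR-182-5p and miR-183-5p contain it.

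Thus 3 of the 9 members passed the filter on low values (3 or more libraries with an adjusted count of 10 or more). Of these, miR-182-5p and miR-96-5p rose and none fell, where 42% of all 181 tested miRNAs rose and 14.4% fell (limma, Benjamini-Hochberg adjusted p below 0.05). The median change of the 3 was 2.79, beside 1.94 for all tested miRNAs. In all 3 every palmitic acid library lay above every control library, as in 48.6% of tested miRNAs, while 19.3% had every palmitic acid library below. Since miR-96-5p could not have passed otherwise, these counts are a description of the cluster and not evidence about it.

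The proportions inside the cluster do not depend on depth or on the miR-122 share, because both miRNAs of a pair are counted in the same library. There were 8.6, 7.13 and 10.9 reads of miR-182-5p per read of miR-183-5p in controls, against 17.6, 28.1 and 17.9 after palmitic acid. The ratio averaged 8.86 ± 1.87 without and 21.2 ± 5.97 with the fatty acid (SD, n = 3 each). The mean log2 ratio was higher by 1.24 with palmitic acid, or 2.37-fold, with no overlap (exact permutation test, two-sided, p = 0.1, which is the minimum for 3 libraries against 3). Counting intervals were wide in controls, for example 4.46 to 18.6 in control replicate 1 (95%, exact Clopper-Pearson), against 15.9 to 19.5 in palmitic acid replicate 1. The intervals of control replicates 1 and 3 overlapped those of palmitic acid replicates 1 and 3, whereas that of control replicate 2 (4.88 to 10.8) overlapped none.

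miR-96-5p made up 1.99%, 1.67% and 1.71% of the reads of miR-96-5p and miR-182-5p together with palmitic acid, a share of 1.79% ± 0.173 (SD, n = 3). In controls it was 0 of 524 such reads, which allows a share of up to 0.573% over the group. At the palmitic acid share, 9.38 control reads would have been counted. Taken singly, control replicate 1 allows up to 3.49%, so no difference was detectable in that library. At the limit of 3 reads, control replicates 2 and 3 allow up to 1.36% and 1.38%, below the palmitic acid shares. Their exact 95% intervals reach higher, to 1.655% and 1.686%. That of control replicate 2 overlaps the intervals of palmitic acid replicates 2 (1.44% to 1.93%) and 3 (1.30% to 2.22%). That of control replicate 3 also overlaps the interval of palmitic acid replicate 1 (1.676% to 2.34%). Single libraries therefore do not separate the groups by counting error.

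**Figure D3:**
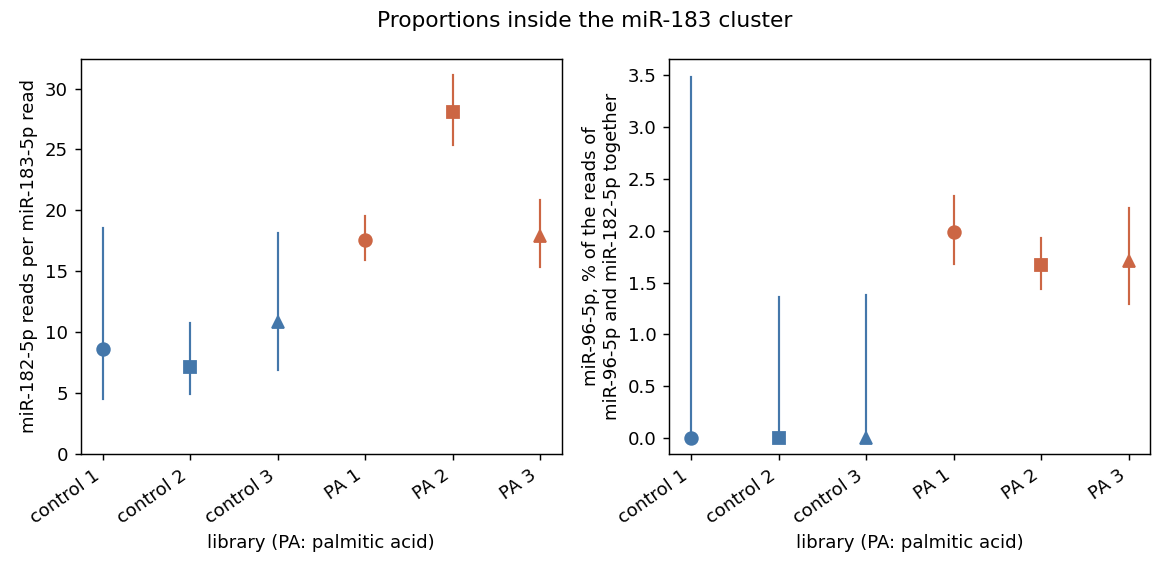
Left, reads of miR-182-5p per read of miR-183-5p in each library; right, miR-96-5p as a percentage of the reads of miR-96-5p and miR-182-5p together. Points are library values and bars exact 95% intervals, or the limit of 3 reads where no read was recovered; the ratio is at least 17.6 in the palmitic acid libraries and at most 10.9 in controls.

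The miR-200 family had few reads in both groups, and the groups overlapped. Its 5 members together had 13, 1 and 52 reads in control replicates 1, 2 and 3, against 27, 24 and 7 after palmitic acid. In RPM the controls were at 443, 12.4 and 988, a mean of 481 ± 489, and the palmitic acid libraries at 39.9, 35.7 and 13.1, a mean of 29.6 ± 14.4 (SD, n = 3 each). Control replicates 1 and 3 lay above every palmitic acid library, while control replicate 2, with 1 read, had an exact 95% interval of 0.31 to 69.0 RPM that takes in all 3 of them. The SD of the controls was larger than the difference between the group means. In RPM of all reads that difference was -89.1, and it was -43.4 without control replicate 3 and -146 without control replicate 2. None of the 5 passed the filter on low values.

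miR-200b-3p, a Zeb-targeting member, had 7, 0 and 31 control reads and 13, 10 and 0 after palmitic acid. miR-200a-3p, from the same locus, was the only family member read in all 6 libraries, with 3, 1 and 7 control reads and 9, 10 and 4 after palmitic acid. Control replicate 3 alone held reads of miR-429-3p, the third miRNA of the chromosome 4 locus, with 14. Control replicate 3 thus held the most reads of this locus with all 3 of its miRNAs, at 988 RPM (95% exact interval 738 to 1296). Against this, the chromosome 4 locus stood at 341 RPM (163 to 626) in control replicate 1 and at 32.5 or less in the other 4 libraries.

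miR-200c-3p and miR-141-3p come from the chromosome 6 locus of the family, apart from the locus of miR-182. miR-200c-3p had 3, 0 and 0 control reads and 4, 4 and 3 after palmitic acid, and miR-141-3p had 1 read in palmitic acid replicate 1 only. With palmitic acid miR-200c-3p was thus at or 1 read above the limit of 3 reads. miR-375-3p had 1 read, in palmitic acid replicate 2, or 1.49 RPM. In controls its absence allows up to 102, 37.1 and 57.0 RPM, so a difference was not detectable at this depth.

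With no filter on low values, limma called none of the 6 low members: the changes were -1.96 for miR-200b-3p (95% interval -6.22 to 2.30), -1.78 for miR-429-3p and -0.999 for miR-200a-3p (-2.54 to 0.54), and 0.16 for miR-200c-3p, 0.20 for miR-141-3p and 0.15 for miR-375-3p. Their adjusted p ran from 0.389 to 0.895, and none had an unadjusted p below 0.05 (the lowest was 0.158). In that fit 88 of 1058 miRNAs (8.32%) rose and 60 (5.67%) fell. Deposited values of such rare miRNAs are not comparable by eye between groups. A single read of miR-200a-3p in control replicate 2 stands in the table as 1.999, while 4 reads in palmitic acid replicate 3 stand as 1.72.

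**Figure D4:**
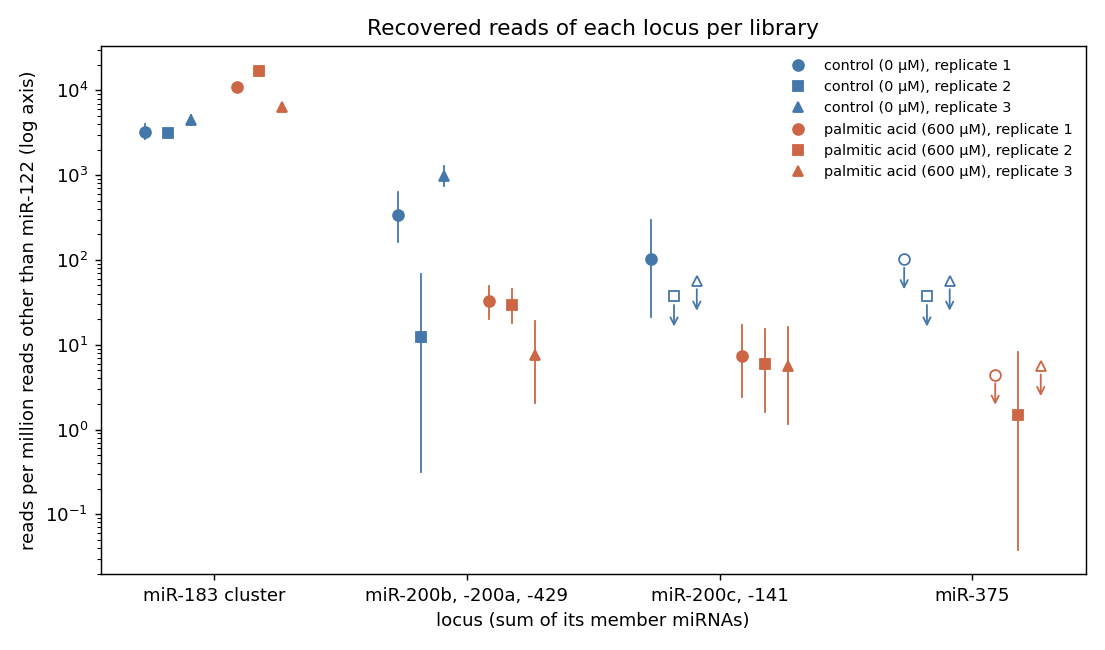
Recovered reads of the miR-183 cluster, the 2 miR-200 loci and miR-375 (x axis) in RPM of reads other than miR-122 (y axis, log scale) in each library. Bars are exact 95% intervals and open symbols with arrows the limit of 3 reads where none was recovered; the cluster is higher in every palmitic acid library, and the chromosome 4 miR-200 locus is highest in control replicates 3 and 1.

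Set against each other within a library, the family took a small share beside the cluster after palmitic acid. The miR-200 family made up 11.9%, 0.395% and 17.99% of the reads of both in controls, against 0.359%, 0.208% and 0.202% after palmitic acid. Every palmitic acid library lay below every control, but control replicate 2 (exact 95% interval 0.010% to 2.18%) was within the counting error of the palmitic acid libraries. The order of the groups therefore rests on control replicates 1 and 3.

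Markers of other cell types were read in the same libraries. The 4 hepatocyte miRNAs made up 63.7% to 82.5% of control reads and 30.3% to 46.2% of palmitic acid reads, with 1 higher and 1 lower among the 4 tested. Calls in the other lists were 2 of 2 tested higher in the neuronal and endocrine list, 1 of 2 lower in the erythroid list and 1 of 1 lower in the muscle list. None was called among the 1 endothelial, 1 immune and 2 stellate miRNAs tested, against a background of 42% higher and 14.4% lower over the 181 tested. In RPM the summed lists ranged from 7069 to 16440 in controls and 4414 to 5609 with palmitic acid for 2 endothelial miRNAs. They ranged from 1275 to 6984 and 525 to 708 for 4 stellate cell and fibroblast miRNAs, and from 12.4 to 818 and 59.9 to 235 for 5 immune and Kupffer cell miRNAs. The 2 erythroid miRNAs ranged from 309 to 18498 and 28.1 to 181, and the 3 striated muscle miRNAs from 780 to 7665 and 29.7 to 59.1, with miR-133a-3p at 0. Control replicates 1 and 3 exceeded replicate 2 in RPM, as for the miR-200 family, in the endothelial, stellate, immune, erythroid, muscle, and neuronal and endocrine lists. The large miR-148a-3p share of control replicate 2 lowers its RPM in all of these lists, so this order depends in part on the scale. The part of these cells in the result was not tested. A list of 3 other epithelial miRNAs (miR-203-3p, miR-205-5p and miR-31-5p) did not share this order. It stood at 2248, 2265 and 171 RPM in control replicates 1, 2 and 3. The 4 neuronal and endocrine miRNAs ranged from 433 to 11310 in controls and 16567 to 23723 after palmitic acid, where nearly all of their reads were miR-7a-5p and miR-7b-5p. The summed list, as the miR-183 cluster, was higher in every palmitic acid library than in any control, and its part in the cluster's values was not tested.

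Detection was compared with and without matching the depth. Reads were found for 5, 3 and 5 of the 9 members in controls and 7, 7 and 5 with palmitic acid, or a mean of 4.33 ± 1.15 against 6.33 ± 1.15 (SD, n = 3 each). Of all 1976 miRNAs of the table, 238, 243 and 242 had reads in controls, and 610, 640 and 484 with palmitic acid. The members read in every library were miR-182-5p, miR-183-5p and miR-200a-3p. Reduced to the total of the shallowest library, 95245 reads, 4.03 ± 1.64 and 4.64 ± 0.648 members would be expected. Reduced to 29354 reads other than miR-122 the order turned, with 4.12 ± 1.52 in controls and 3.74 ± 0.366 with palmitic acid. At matched depth the groups thus differed by less than the spread between controls.

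The reads came almost wholly from the member arm of each hairpin. The opposite arms of all 9 hairpins were in the table, and together they had no control read. With palmitic acid, miR-183-3p had 5 reads and miR-200a-5p and miR-200c-5p 1 each, all in replicate 2, the library with the most reads of the cluster. miR-182-3p, miR-96-3p, miR-200b-5p, miR-429-5p, miR-141-5p and miR-375-5p had none in any library.

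The shape of miR-182-5p across libraries was not confined to its cluster. Over the 6 libraries its deposited values correlated with those of miR-96-5p (Pearson r = 0.96) and miR-183-5p (0.94). Of the 181 tested miRNAs, 22 outside the cluster had r above 0.95, and the closest of these were miR-1839-5p (0.98), miR-106b-5p (0.98) and miR-29c-3p (0.98). These values are a description over 6 libraries that fall into 2 groups and share one adjustment.

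The 3 other epithelial miRNAs differed from one another. miR-31-5p, found in many squamous and injured epithelia, rose by 5.19 (SE 0.86, limma adjusted p = 0.00132), from 2, 0 and 0 reads in controls to 176, 276 and 115 with palmitic acid, and it too passed the filter only through the palmitic acid libraries. miR-203-3p, a miRNA of differentiating epidermis, overlapped between groups, at 1567, 2265 and 171 RPM in controls and 388, 733 and 674 after palmitic acid. Its log2 change was 0.57 (SE 1.06, limma adjusted p = 0.667), and it was -0.56 in RPM. miR-205-5p, a basal epithelial miRNA, had 18 reads in control replicate 1 and none elsewhere. Of the 3, then, 1 of 2 tested rose, beside 42% of all tested miRNAs.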

How the data were processed

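Small RNA libraries of hepatocyte vesicles were prepared from Trizol RNA by a NEBNext kit, per the labels' protocols. Per the submitters' processing notes, GRCm38 or mm10 and the tools Bowtie2 and bedtools were used, in unstated versions and roles; for the counting rule, the sources used here give nothing. The deposited table holds log2 values, not whole counts, although it is named as raw counts. Judged from the numbers, they are log2(adjusted count + 1), where reads were mapped between negative binomial quantiles onto equal library factors. The factors, which did not follow the read totals, and the dispersion of 1.39 were fitted here. No label states this mapping step. The mapping was inverted in Python 3.11.15 (scipy 1.17.1). Of 1936 values whose neighbouring read numbers differ by 0.02 or more (log2), 99.95% gave whole reads to within 0.0015. In a simulation of 1058 rows, 99.9% of read numbers were recovered within 0.2%. Those rows were made with the same adjustment and its fitted values, so they test the inversion and not the form of the adjustment. Row means and factors were fitted towards whole reads, which favours the share of 99.95%. Read numbers of abundant miRNAs are estimates. Of the 1058 rows with a deposited value above 0, 108 gave no recovered read in any library here. The adjustment may have drawn on further libraries, which was not tested.

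Changes were tested with limma 3.58.1 (R 4.3.3), using a group term and a mean-variance trend, on the deposited values of the 181 miRNAs that reached an adjusted count of 10 in 3 or more libraries. P-values are two-sided and Benjamini-Hochberg adjusted over all of them. On data simulated for this comparison (181 miRNAs, 90 changed), the fit called 15.7%, 59% and 81.2% of log2 changes of 1, 2 and 4, and 3.35% of its calls were false. Named were the 9 members, their opposite arms, 3 other epithelial miRNAs and the 3 tested miRNAs most correlated with miR-182-5p. Members, lists and tests were chosen with earlier results of these data known. Libraries within a group differed by more than counting noise (chi-square per degree of freedom 31.1 to 226).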

Additional observations from a re-analysis of the deposited data

How the results depend on the processing

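The rise of miR-182-5p kept its direction and its call in 15 of 16 alternatives (log2 change 0.85 to 3.90, adjusted p 9.8e-05 to 0.144), and was lost relative to the median tested miRNA (0.85, adjusted p = 0.144), an alternative chosen after seeing the data. The fitted change of miR-96-5p ran from 3.46 to 7.52 over 15 alternatives; with no control read its direction was set beforehand, so this says nothing of stability, and it was not tested at the stricter minimum of 50. miR-183-5p passed with RPM of all reads (2.5, adjusted p = 0.0391), with voom (2.46, 0.0386), with no mean-variance trend (1.51, 0.0495) and without control replicate 2, and turned to -0.43 relative to the median; leaving out 1 library at a time gave 1.21 to 1.90, and adjusted p ran from 0.0264 to 0.607 over its alternatives. There were 2 members called, against 1 with the minimum of 50 and 1 relative to the median, and 2 to 3 with 1 library left out. Of all tested miRNAs, 76 were higher and 26 lower. The numbers higher were 50 with the minimum of 50 and 48 relative to the median; the numbers lower were 60 with no filter, 40 with centred libraries, 8 in RPM of all reads, 41 in RPM without miR-122, 9 with voom and 59 relative to the median. In RPM of all reads, 89 were higher, and with centring 65. The median change lay between 1.15 and 2.99 under the other scalings. miR-203-3p turned to -0.22 with centring, -0.56 without miR-122 and -1.37 relative to the median, and ran from -0.67 (without control replicate 3) to 1.63 with 1 library left out, never passing. The miR-200 family differed by -89.1 RPM of all reads and by -452 without miR-122; leaving out 1 library gave -146 (without control replicate 2) to -43.4 (without control replicate 3). Members detected differed by 2 between groups, by 0.602 at the depth of the shallowest library and by -0.382 at matched reads other than miR-122, the last chosen after seeing the data; leaving out 1 library gave 1.33 to 2.67.

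Labels share replicate numbers between groups, and deviations of same-numbered libraries correlated at 0.209, 0.151 and 0.0383. Control replicates 1 and 2 correlated best with the palmitic acid library of their own number, and control replicate 3 with palmitic acid replicate 2 (0.0623). Since these correlations were low, the numbers were not taken to pair the libraries, but a pairing is not excluded. With the replicate block 83 miRNAs were higher and 28 lower, and the calls of the 3 tested members did not change (miR-182-5p adjusted p = 9.8e-05, miR-96-5p 1.7e-06, miR-183-5p 0.134). Depth limits the miR-200 family and miR-375-3p, where few reads decide each value.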
